A study of Homo sapiens with 21 samples.

Results

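NOTCH signalling genes were followed in 4 human breast cancer cell lines treated with THZ1, a covalent inhibitor of the transcriptional kinase CDK7. The set holds 9 genes taken by symbol from the array annotation: the ligands JAG1 and JAG2, the receptors NOTCH1, NOTCH2 and NOTCH3, the DNA-binding factor RBPJ, and the target genes HES1, HES4 and HEY1. They are 9 of 18132 genes with a probe set of their own, and 9 of the 12644 that passed the filter on low values and were tested. MDA-MB-468 and BT-549 are labelled triple-negative, and ZR-75-1 and T47D are the other lines, known as oestrogen receptor-positive luminal lines. Each established line was grown in serum-supplemented RPMI-1640 and exposed for 6 h to DMSO vehicle, 50 nM THZ1 or 250 nM THZ1, which gave 12 groups on 21 arrays. Each group of MDA-MB-468, T47D and ZR-75-1 had 2 arrays. BT-549 had 1 array per group, so its values have no replicate check.

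NOTCH receptors are cell surface proteins that are activated by JAG or DLL ligands on a neighbouring cell. Ligand binding lets ADAM proteases and then gamma-secretase cut the receptor, and the freed intracellular part enters the nucleus, binds RBPJ and recruits MAML coactivators. HES and HEY genes, which encode short-lived basic helix-loop-helix repressors, are the best known direct targets. In the mammary gland the pathway is known for its part in luminal fate, and in breast cancer it has been studied most in triple-negative tumours.

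The promoters of HES1 and HES4 are shown because both carry the core of the RBPJ recognition sequence while the transcripts behaved differently under THZ1. Sequences are from RefSeq on GRCh38.p14, run 5′ to 3′ on the strand of the gene from 250 bases before to 50 bases after its start, and have TGGGAA in capitals.
HES1, chr3:194135898-194136197, plus strand: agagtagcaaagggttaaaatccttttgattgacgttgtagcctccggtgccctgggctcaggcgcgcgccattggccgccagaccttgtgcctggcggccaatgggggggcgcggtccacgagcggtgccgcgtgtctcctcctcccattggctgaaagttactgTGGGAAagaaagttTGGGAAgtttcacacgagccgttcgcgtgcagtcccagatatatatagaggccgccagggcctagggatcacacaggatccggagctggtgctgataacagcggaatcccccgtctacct
HES4, chr1:1000048-1000347, minus strand: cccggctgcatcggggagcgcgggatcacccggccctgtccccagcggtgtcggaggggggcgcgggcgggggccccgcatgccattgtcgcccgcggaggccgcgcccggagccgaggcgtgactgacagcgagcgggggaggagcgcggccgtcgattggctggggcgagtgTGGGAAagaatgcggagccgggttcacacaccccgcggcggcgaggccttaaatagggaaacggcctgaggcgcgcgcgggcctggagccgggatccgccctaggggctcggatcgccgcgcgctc
In HES1 the 2 copies of TGGGAA begin 84 and 70 bases before the start on the strand of the gene, 14 bases apart. The upstream copy is part of the longer word GTGGGAA. HES4 has 1 copy, 76 bases before the start, also within GTGGGAA. Searched on both strands, TGGGAA occurs in 24.0% and GTGGGAA, which contains it, in 6.2% of 35116 windows of the same length, so a match is a description of the letters and not a measured binding site. No TGGGAA lies in the windows of NOTCH1, NOTCH2, NOTCH3, JAG1 or JAG2, or in 4 of the 5 windows of RBPJ. The RBPJ window at chr4:26319496-26319795 (plus strand) holds GTGGGAA 2 times. The word CACNAG, searched on both strands as a form of the N-box bound by HES proteins, occurs 4 times in the HES1 window and not in that of HES4, and in 38.0% of all windows.

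The deposited values are probe set intensity on a linear scale, and a gene is given by its brightest probe set. Array means lay between 326.4 and 342.8 and replicate arrays correlated at 0.9905 to 0.9934 over all probe sets, a description in which probe sets are not replicates. The level of 23 background probe sets lay between intensities of 23.5 and 31.4. Differences are on the log2 scale from limma over 18 arrays, with p-values Benjamini-Hochberg adjusted over all 12644 genes and a call at an adjusted p under 0.05. The labels do not say that replicate arrays came from separate cultures, so p-values measure only the spread between these arrays. Comparisons with DMSO within a line share its DMSO arrays. In these bulk samples fewer cells of a type and less RNA per cell cannot be told apart, and because 100 ng of total RNA was labelled from every sample, the values are not amounts per cell. Summed luminal marker intensity was 64409 to 74493 in ZR-75-1, 43536 to 46771 in T47D, 17216 to 18820 in MDA-MB-468 and 781 to 1568 in BT-549. BT-549 had the highest mesenchymal marker sum (19481 to 21564 against 436 to 1658 elsewhere). The source field of every ZR-75-1 and T47D sample names MDA-MB-468, whereas title and cell line field name ZR-75-1 and T47D. The luminal and basal marker sums of those arrays stood apart from MDA-MB-468. Luminal sums also grouped by title, while basal sums overlapped between ZR-75-1 and T47D. Mesenchymal (ZR-75-1) and epithelial (T47D) sums overlapped those of MDA-MB-468.

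The array medians fell with dose, from log2 5.82 to 6.00 over the DMSO arrays to 5.62 to 5.90 over the 250 nM arrays. Centring arrays on their medians moved the median change of all genes at 250 nM from -0.07 to 0.14 in MDA-MB-468, from -0.18 to 0.08 in ZR-75-1 and from -0.08 to 0.05 in T47D. Calls that this rescaling ends are named below beside each gene.

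Untreated cells differed most in JAG1 and NOTCH3. JAG1, a ligand that many epithelial cells present to their neighbours, had DMSO intensities of 325 and 353 in MDA-MB-468 and 231 in BT-549. The ZR-75-1 arrays read 87.6 and 82.6 and those of T47D 29.8 and 25.8. The 4 lines did not overlap, and in T47D 1 of the 2 arrays was not above background. JAG1 was 3.99-fold higher in MDA-MB-468 than in ZR-75-1 (log2 difference 1.99, adjusted p = 2.22e-09) and higher than in T47D by 3.61 on the log2 scale (adjusted p = 1.34e-12), a size that rests on a T47D group only partly above background.

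NOTCH3, a receptor whose gene is amplified in some tumours, read 332 and 322 in MDA-MB-468 under DMSO, 78.7 and 83.2 in ZR-75-1, 74.6 and 88.0 in T47D and 41.5 in BT-549. MDA-MB-468 stood alone at the top, and the ZR-75-1 and T47D arrays overlapped. It was 4.04-fold higher in MDA-MB-468 than in either (adjusted p = 4.12e-09 against ZR-75-1), while ZR-75-1 and T47D differed by 0.00 (adjusted p = 0.994). The BT-549 array, of the other line labelled triple-negative, was below all others on the probe set used. The other NOTCH3 probe set was brighter on that array (log2 6.29 against 5.37).

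The other members had smaller differences between untreated lines. HES4 was 2.30-fold higher in MDA-MB-468 than in ZR-75-1 and 2.02-fold higher than in T47D, and HES1 1.86-fold and 2.38-fold. RBPJ was higher in MDA-MB-468 by 0.51 over ZR-75-1 and 0.78 over T47D on the log2 scale. HEY1 was higher by 0.78 than in ZR-75-1 (adjusted p = 0.0119) and at least 2.44-fold higher than in T47D, where it was below background on every array. It passed the filter on low values only through MDA-MB-468, which favours such differences. NOTCH1 was higher in MDA-MB-468 than in ZR-75-1 by 0.77 and than in T47D by 0.36, and lower in ZR-75-1 than in T47D by 0.41. JAG2 ran the other way, being 0.49 lower in MDA-MB-468 than in T47D (adjusted p = 0.000260). NOTCH2 was the most even member, with log2 differences of 0.09 to 0.25, of which only the one between MDA-MB-468 and T47D passed the test (adjusted p = 0.0160). Of the 9 members, 7 were called between MDA-MB-468 and ZR-75-1, where 66.0% of all genes were called, all 9 between MDA-MB-468 and T47D (67.6% of all genes), and 6 between ZR-75-1 and T47D (63.1%). Differences between untreated lines were thus common among all genes. The calls that ended when 1 array was left out were HEY1 against ZR-75-1 (0.73 without MDA-MB-468 array 2, 0.70 without ZR-75-1 array 1), and NOTCH1 (0.22 and 0.28) and NOTCH2 (0.21 and 0.22) against T47D without MDA-MB-468 array 2 or T47D array 1. Between ZR-75-1 and T47D they were NOTCH1 (-0.33) and RBPJ (0.22) without T47D array 2, and JAG2 without ZR-75-1 array 2 (-0.26) or T47D array 2 (-0.24).

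**Figure D1:**
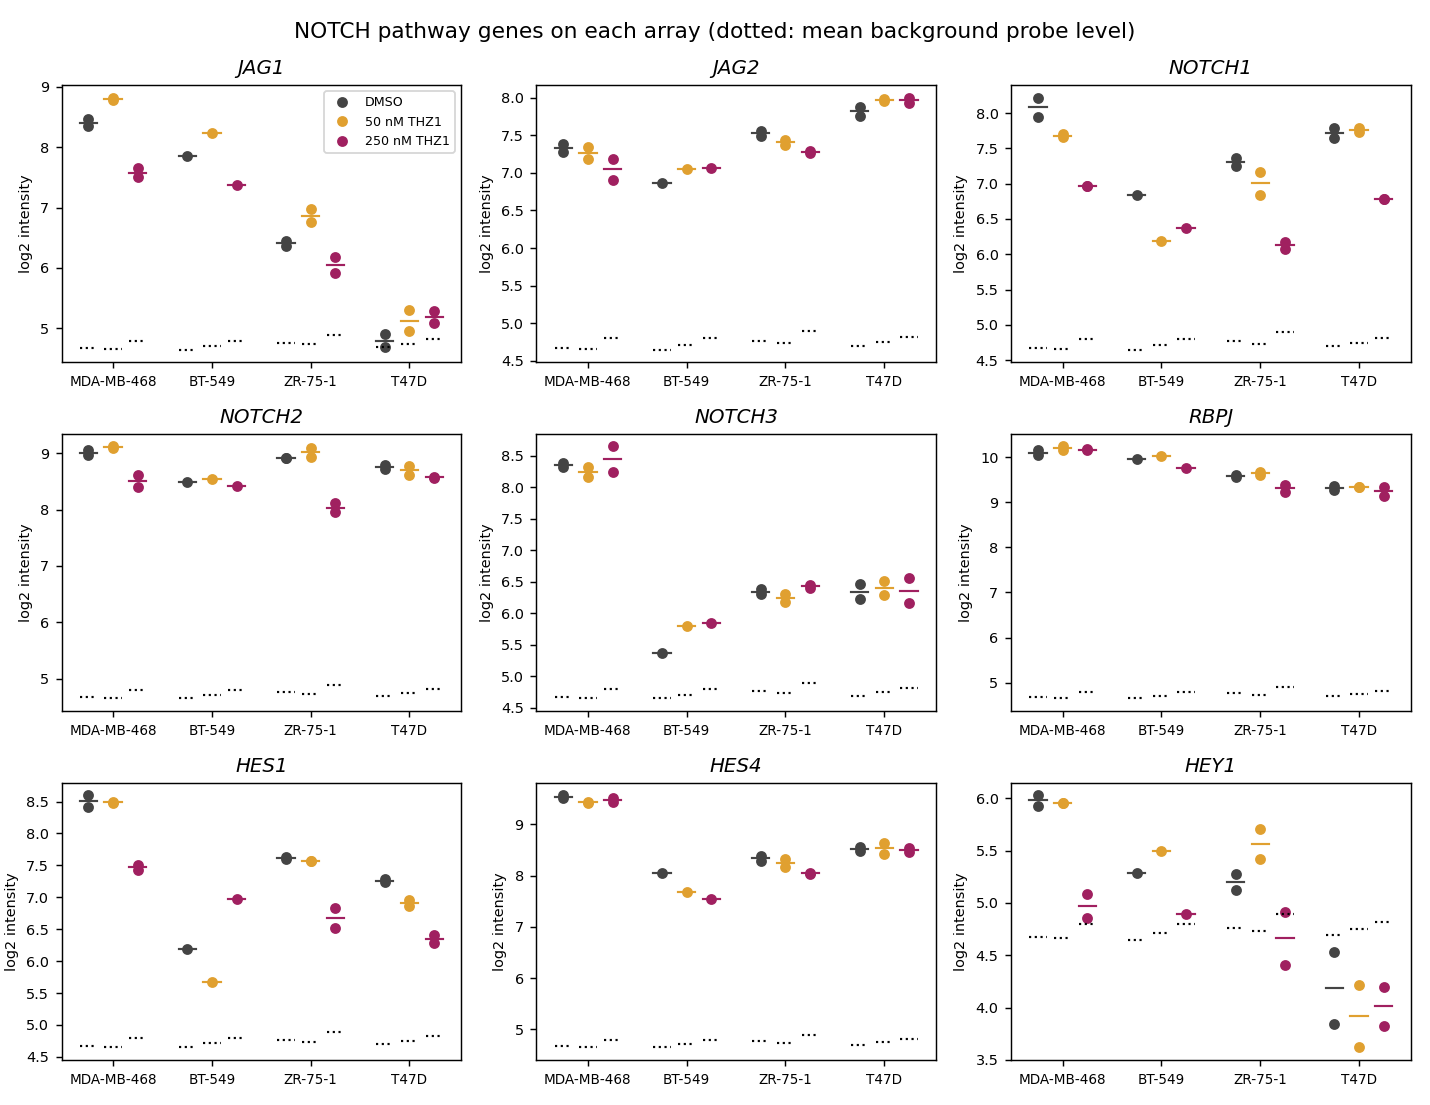
Level of each of the 9 genes on every array (log2 intensity, vertical axis) by line and dose, with points for arrays, dashes for group means and a dotted line at the mean background level. JAG1 and NOTCH3 are highest in MDA-MB-468, NOTCH1 and HES1 drop at 250 nM in the 3 replicated lines, and HEY1 in T47D lies under the background line.

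At 50 nM few members moved. At 250 nM NOTCH1 and HES1 fell in the 3 replicated lines, NOTCH2 and JAG1 in MDA-MB-468 and ZR-75-1, and HEY1 in MDA-MB-468. At 50 nM 1 member was lower in MDA-MB-468 (NOTCH1), where 14.6% of all genes were called lower, none in ZR-75-1 (5.68% of all genes) and 1 in T47D (HES1, 7.56% of all genes). No member was called higher at that dose, against 4.42%, 2.79% and 1.99% of all genes. By limma at an unadjusted p under 0.05, JAG1 was higher in all 3 lines and NOTCH1 was the 1 member lower in ZR-75-1. At 250 nM 6 members were lower in MDA-MB-468 (JAG1, JAG2, NOTCH1, NOTCH2, HES1 and HEY1) beside 30.3% of all genes. Of these, HEY1 reached the filter level only in MDA-MB-468 under DMSO and at 50 nM, which favours its place in this count. In ZR-75-1 7 members were lower (JAG1, JAG2, NOTCH1, NOTCH2, RBPJ, HES1 and HES4) beside 42.8% of all genes, and in T47D 2 were lower (NOTCH1 and HES1) beside 33.7%. JAG1 was the 1 member called higher, in T47D, where 9.61% of all genes were higher (9.54% in MDA-MB-468 and 9.93% in ZR-75-1). The median change of the members at 250 nM was -0.50 in MDA-MB-468, -0.36 in ZR-75-1 and -0.08 in T47D, beside -0.07, -0.18 and -0.08 over all genes. With arrays centred, the lower counts became 5, 3 and 2 and the higher counts 1, 0 and 2, and with quantile normalization they became 5, 3 and 2 lower and 0, 2 and 3 higher.

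**Figure D2:**
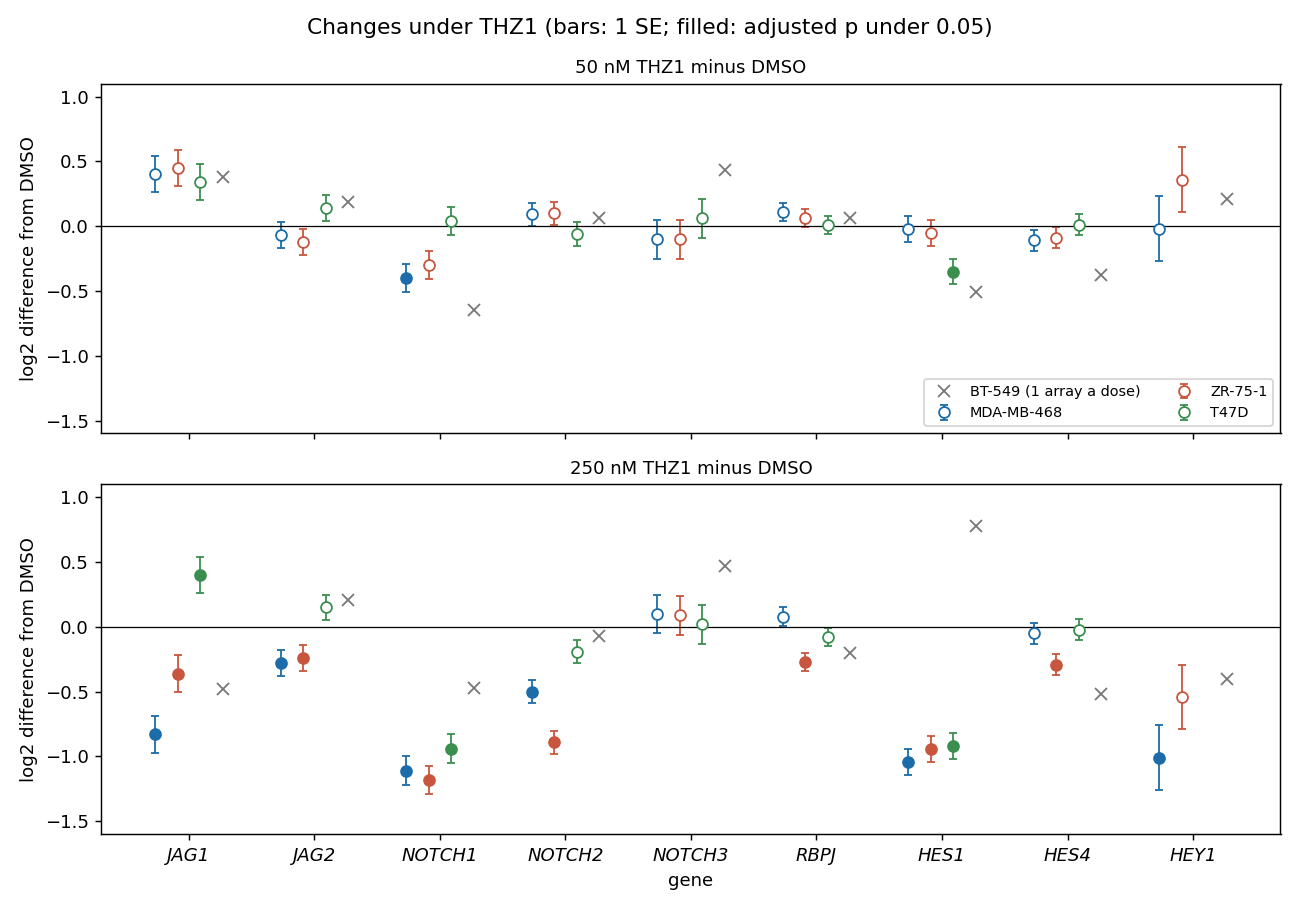
Change of each member from DMSO (log2 difference, vertical axis, genes along the horizontal axis; HEY1 in T47D left out as below background) at 50 nM (top) and 250 nM (bottom) in each line, with bars of 1 standard error, filled symbols where the adjusted p was under 0.05 and crosses for BT-549, which has no test. At 250 nM NOTCH1 and HES1 lie near -1 in the 3 replicated lines, NOTCH3 lies near 0, and JAG1 falls on opposite sides of 0 in MDA-MB-468 (-0.83) and T47D (0.40).

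Among the ligands, JAG1 moved in opposite directions at the higher dose. In MDA-MB-468 its intensities were 325 and 353 under DMSO, 451 and 441 at 50 nM and 181 and 202 at 250 nM. In ZR-75-1 they were 87.6 and 82.6, then 125 and 108, then 72.9 and 60.1. In both lines the 3 groups did not overlap, with 50 nM at the top and 250 nM at the bottom. T47D read 29.8 and 25.8 under DMSO, 31.2 and 39.3 at 50 nM and 34.1 and 39.2 at 250 nM. Here both doses lay above the DMSO arrays and overlapped each other, all but 1 DMSO array being slightly above background. At 250 nM JAG1 was 1.77-fold lower in MDA-MB-468 (log2 -0.83 ± 0.14 SE, n = 2 arrays per group, limma adjusted p = 0.000126) and 1.28-fold lower in ZR-75-1 (adjusted p = 0.0362), but 1.32-fold higher in T47D (0.40, adjusted p = 0.0268). The ZR-75-1 call ended with centred arrays (-0.11), as well as when either DMSO array (-0.32 and -0.40) or array 2 at 250 nM (-0.22) was left out. The T47D call ended without DMSO array 2 or 250 nM array 2 (0.30 each).

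The rise of JAG1 at 50 nM missed the threshold in each line. The log2 differences from DMSO were 0.40 in MDA-MB-468 (limma adjusted p = 0.0557), 0.45 in ZR-75-1 (adjusted p = 0.0531) and 0.34 in T47D (adjusted p = 0.151), and the single BT-549 arrays differed by 0.38. The unadjusted limma p-values were 0.0111, 0.00463 and 0.0261. With centred arrays the change passed in MDA-MB-468 (0.54, adjusted p = 0.00911) and ZR-75-1 (0.48, adjusted p = 0.0412). The step from 50 to 250 nM was the clearest part of the course, with falls of 1.22 in MDA-MB-468 (adjusted p = 2.96e-06) and 0.82 in ZR-75-1 (adjusted p = 9.44e-05) on the log2 scale and a difference of 0.06 in T47D.

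JAG2, the other JAG ligand, varied little. Its intensities spanned 120.0 to 167 over the MDA-MB-468 arrays, 154 to 188 in ZR-75-1, 217 to 257 in T47D and 117 to 134 in BT-549. At 250 nM it was lower by 0.28 in MDA-MB-468 (1.22-fold, adjusted p = 0.0263) and 0.24 in ZR-75-1 (1.18-fold, adjusted p = 0.0425), and the T47D difference was 0.15 (adjusted p = 0.243). Both calls ended with centred arrays (-0.08 and 0.01). The MDA-MB-468 call ended without DMSO array 2 (-0.23) or 250 nM array 1 (-0.15), and the ZR-75-1 call without any of the 4 arrays compared (-0.28 to -0.21) or either T47D array at 50 nM (-0.24 each).

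NOTCH1 is the receptor gene for which activating mutations in T-cell leukaemia are best known. At 250 nM its brightest probe set fell in all 3 replicated lines, and the other tested one was not called in any. MDA-MB-468 read 245 and 298 under DMSO, 202 and 208 at 50 nM and 125 and 125 at 250 nM. ZR-75-1 read 153 and 164, then 115 and 144, then 67.5 and 72.5, and in both lines the 3 doses formed separate descending groups. T47D read 200 and 222 under DMSO, 212 and 221 at 50 nM and 109.5 and 109.5 at 250 nM. In T47D the DMSO and 50 nM arrays overlapped and only the 250 nM arrays were low. The folds at 250 nM were 2.17 in MDA-MB-468 (log2 -1.11 ± 0.11, adjusted p = 5.98e-07), 2.26 in ZR-75-1 (-1.18, adjusted p = 1.68e-07) and 1.92 in T47D (-0.94, adjusted p = 4.64e-06).

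At 50 nM NOTCH1 was 0.40 lower in MDA-MB-468 (adjusted p = 0.0215) and 0.30 lower in ZR-75-1, which missed the threshold (adjusted p = 0.125), and differed by 0.04 in T47D (adjusted p = 0.894). The MDA-MB-468 call ended with centred arrays (-0.26, adjusted p = 0.122) and without DMSO array 2 (-0.26), 50 nM array 1 (-0.37) or 50 nM array 2 (-0.42). From 50 to 250 nM NOTCH1 fell by 0.72 in MDA-MB-468, 0.88 in ZR-75-1 and 0.98 in T47D, all called.

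NOTCH2, a receptor widely expressed in epithelia, fell at 250 nM in MDA-MB-468 and ZR-75-1. Its intensities were 499 and 531 under DMSO, 544 and 555 at 50 nM and 395 and 337 at 250 nM in MDA-MB-468. The ZR-75-1 values were 485 and 482, then 544 and 492, then 276 and 248. In both lines the 250 nM arrays lay below all others. T47D read 422 and 441, then 391 and 438, then 382 and 376, which is below the DMSO arrays but close to them. NOTCH2 was 1.41-fold lower in MDA-MB-468 (-0.50 ± 0.09, adjusted p = 0.000198) and 1.85-fold lower in ZR-75-1 (-0.89, adjusted p = 2.07e-07). The T47D change of -0.19 missed the threshold (adjusted p = 0.0949, 95% interval -0.37 to 0.00). At 50 nM the differences were 0.09, 0.10 and -0.06, none called.

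NOTCH3 was the receptor with no called change at either dose, also on its other probe set. In MDA-MB-468, where it was brightest, it read 332 and 322 under DMSO, 288 and 321 at 50 nM and 403 and 303 at 250 nM, so the 250 nM arrays spanned the DMSO arrays. The intensities were 72.6 to 87.4 over the 6 ZR-75-1 arrays and 71.7 to 94.3 over the 6 T47D arrays, with no separation by dose in T47D. The 250 nM differences were 0.10 (adjusted p = 0.661), 0.09 (0.653) and 0.02 (0.924), with 95% intervals of -0.21 to 0.41, -0.22 to 0.40 and -0.29 to 0.33. These intervals do not reach the falls of NOTCH1 in the same lines, but they allow changes of either sign. With quantile normalization NOTCH3 was called higher in ZR-75-1 at 250 nM (0.53, adjusted p = 0.0100).

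RBPJ is the factor that all NOTCH receptors act through. It changed little on its brightest probe set, while others fell further in ZR-75-1 at 250 nM (-0.60 and -0.51). Its intensities were 1053 to 1207 in MDA-MB-468, 601 to 814 in ZR-75-1, 566 to 659 in T47D and 861 to 1036 in BT-549. The ZR-75-1 arrays at 250 nM (601 and 669) lay below the DMSO arrays (780.4 and 754), a 1.21-fold decrease (-0.27, adjusted p = 0.00477). That call ended with centred arrays (-0.02) and without 250 nM array 1 (-0.20, adjusted p = 0.0706). The differences were 0.08 in MDA-MB-468 (adjusted p = 0.467) and -0.08 in T47D (adjusted p = 0.430). In MDA-MB-468 RBPJ became higher with centred arrays (0.28, adjusted p = 0.0251) and lower with the mean of all probe sets (-0.20, adjusted p = 0.0492).

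HES1, the HES repressor most often read as a measure of NOTCH activity, fell by close to 1 on the log2 scale in all 3 replicated lines at 250 nM. MDA-MB-468 read 343 and 388 under DMSO, 357 and 363 at 50 nM and 182 and 173 at 250 nM. ZR-75-1 read 194 and 198, then 189.7 and 189.5, then 114 and 91.7. In these 2 lines the 50 nM arrays stayed near the DMSO arrays and the 250 nM arrays lay far below both. T47D read 151 and 156, then 125 and 116, then 77.6 and 84.8, with 3 separate groups. The folds were 2.06 in MDA-MB-468 (-1.04 ± 0.10, adjusted p = 3.49e-07), 1.92 in ZR-75-1 (-0.94, adjusted p = 6.60e-07) and 1.89 in T47D (-0.92, adjusted p = 1.76e-06). At 50 nM HES1 was lower in T47D (-0.35, adjusted p = 0.0386), a call that ended with centred arrays (-0.31, adjusted p = 0.119) and without any of the 4 arrays compared (-0.40 to -0.30) or either MDA-MB-468 array at 50 nM (adjusted p = 0.0550 and 0.0551). The differences in MDA-MB-468 and ZR-75-1 at 50 nM were -0.02 (adjusted p = 0.916) and -0.05 (adjusted p = 0.852).

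HES4, a HES gene found in human but not in mouse, did not follow HES1. MDA-MB-468 read 758 and 727 under DMSO and 695 and 736 at 250 nM, which overlap. T47D read 377 and 359 under DMSO and 370.0 and 354 at 250 nM, which also overlap. The differences were -0.05 (adjusted p = 0.652, 95% interval -0.22 to 0.12) and -0.02 (adjusted p = 0.840, interval -0.19 to 0.14). In ZR-75-1 HES4 was 1.22-fold lower, with 336 and 311 falling to 261 and 268 (-0.29, adjusted p = 0.00537). That call ended with centred arrays (-0.04) and without DMSO array 1 (-0.23, adjusted p = 0.0589).

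HEY1, a HEY repressor that pairs with HES proteins, was close to background in most groups. It reached the filter level in only 2 of 12, MDA-MB-468 under DMSO and at 50 nM. HEY1 was thus tested only because of its level there, a selection that favours a higher level in untreated MDA-MB-468 and a fall at 250 nM. In MDA-MB-468 it read 61.0 and 65.3 under DMSO, 62.0 and 62.4 at 50 nM and 34.0 and 29.0 at 250 nM. The 250 nM arrays were clearly the lowest, 2.01-fold below DMSO (-1.01 ± 0.25, adjusted p = 0.00389). ZR-75-1 read 34.8 and 38.8, then 52.3 and 42.8, then 21.3 and 30.1, with neither 250 nM array above background. The ZR-75-1 difference at 250 nM was -0.54, at least a 1.23-fold decrease, and missed the threshold (adjusted p = 0.0854; it passed with a floor of 16, adjusted p = 0.0306), while the step from 50 to 250 nM was called (at least 1.59-fold, adjusted p = 0.00657). That last call ended without 50 nM array 1 (-0.76) or 250 nM array 1 (-0.65). T47D was below background on all 6 arrays and gives no fold.

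Between 50 and 250 nM, 5 members were lower in MDA-MB-468 (JAG1, NOTCH1, NOTCH2, HES1 and HEY1) beside 23.2% of all genes, 7 in ZR-75-1 beside 41.7%, and 2 in T47D (NOTCH1 and HES1) beside 27.2%. HEY1 reached the filter level only in MDA-MB-468 under DMSO and at 50 nM, which favours a fall in that line here. Its call for this step in MDA-MB-468 ended without 250 nM array 2 (-0.87). The 7 in ZR-75-1 were JAG1, NOTCH1, NOTCH2, RBPJ, HES1, HES4 and HEY1. No member was called higher between these doses, where 5.73%, 6.64% and 4.59% of all genes were, and none had an unadjusted limma p under 0.05 in that direction. The HES4 call (-0.20, adjusted p = 0.0475) lay at the threshold. It ended without a filter on low values, with every probe set as a feature, with the arrays of ZR-75-1 alone, and without 50 nM array 2 (-0.12), 250 nM array 1 (-0.18), 250 nM array 2 (-0.22) or, with the value at -0.20, any of 10 arrays of the other lines. With centred arrays the ZR-75-1 calls of RBPJ (-0.10) and HES4 (0.03) ended and NOTCH3 became higher (0.42, adjusted p = 0.0250).

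Probe sets of one gene did not always move together, and the arrays carry 3 for NOTCH1, 5 for HES1, 5 for NOTCH2, 6 for JAG1 and 6 for RBPJ. The bright NOTCH1 probe set gave the falls above, whereas another, with group means of only 41.9 to 65.2, differed from DMSO at 250 nM by 0.13 in MDA-MB-468, 0.04 in ZR-75-1 and 0.28 in T47D (adjusted p = 0.543, 0.841 and 0.164). The mean over all NOTCH1 probe sets gave smaller changes at 250 nM, of -0.40 in MDA-MB-468 and -0.36 in ZR-75-1, and ended the T47D call (-0.24, adjusted p = 0.104). It also ended the calls from 50 to 250 nM in MDA-MB-468 (-0.26, adjusted p = 0.0990), ZR-75-1 (-0.25, 0.0813) and T47D (-0.24, 0.127), and the 3 differences between untreated lines (0.18, 0.01 and -0.17). For HES1 another probe set fell more than the brightest, by 2.03 in MDA-MB-468 (adjusted p = 3.73e-11), 1.48 in ZR-75-1 and 1.09 in T47D. It was also lower at 50 nM in MDA-MB-468 (-0.30, adjusted p = 0.0274) and T47D (-0.38, adjusted p = 0.0116). A further HES1 probe set was lower in the 3 lines (-0.59, -0.93 and -0.38), and a dimmer one was not called (0.01, -0.02 and 0.25). HES1 was therefore lower on 3 of its 4 tested probe sets in each line.

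NOTCH2 probe sets moved in both directions. At 250 nM another of its probe sets followed the brightest (-0.53, -0.64 and -0.24), but a further one was higher at 50 nM in MDA-MB-468 (0.61, adjusted p = 0.00502) and ZR-75-1 (0.81, adjusted p = 0.00156), and at 250 nM in T47D (0.66, adjusted p = 0.000956). A total of 4 more probe sets are annotated to NOTCH2 together with other genes, and none of these was used or tested. The brightest of them had mean log2 levels of 9.75 under DMSO and 9.91 at 250 nM in MDA-MB-468, 9.11 and 8.58 in ZR-75-1, 9.37 and 9.55 in T47D, and 7.84 and 7.72 in BT-549. The next brightest gave 9.66 and 9.69, 8.71 and 8.17, 9.20 and 9.24, and 7.42 and 7.21. Neither was lower in MDA-MB-468, but their signal cannot be assigned to NOTCH2 alone. For RBPJ other probe sets fell at 250 nM in MDA-MB-468 (-0.33, adjusted p = 0.00502) and in ZR-75-1 (-0.60 and -0.51), lines in which the brightest gave 0.08 and -0.27. Another JAG1 probe set was lower in MDA-MB-468 (-0.45, adjusted p = 0.0161) and differed by 0.00 and -0.02 in ZR-75-1 and T47D. At 50 nM it was higher in ZR-75-1 (0.55, adjusted p = 0.0227). The third tested JAG1 probe set was not called at 250 nM (-0.02, -0.22 and 0.17; adjusted p = 0.926, 0.209 and 0.368) or at 50 nM (-0.04, -0.12 and -0.03).

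**Figure D3:**
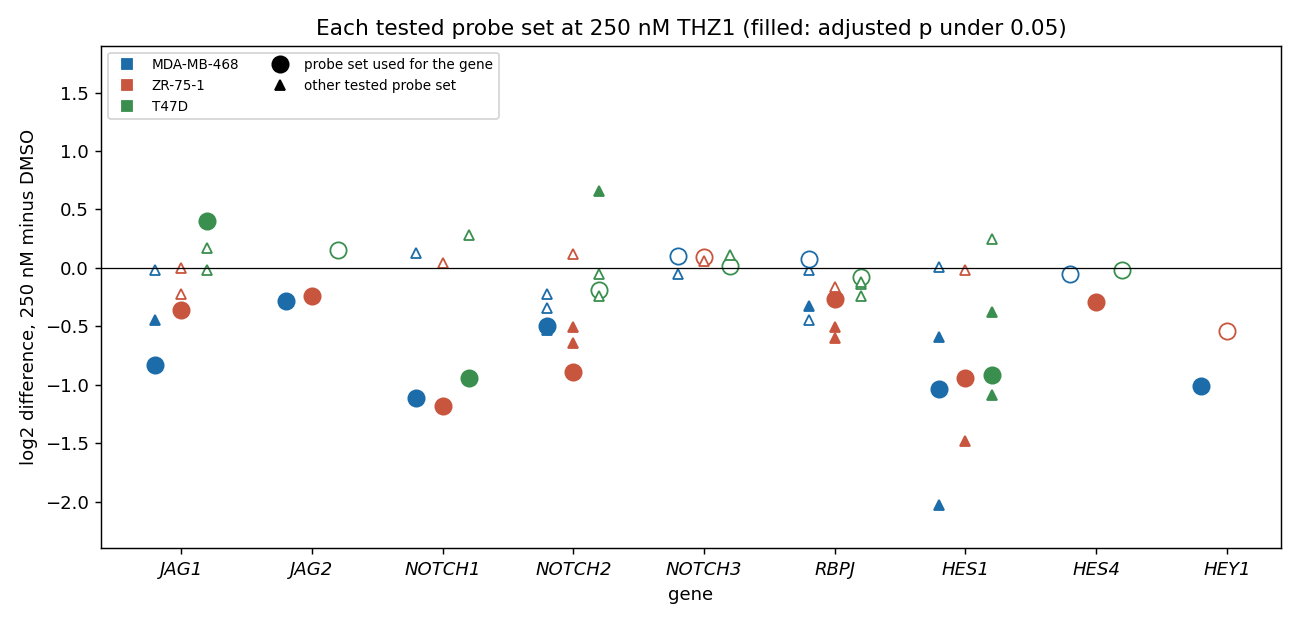
Change at 250 nM from DMSO (log2 difference, vertical axis) for every tested probe set of each member in the 3 replicated lines, with circles for the probe set that stands for the gene, triangles for the others and filled symbols where the adjusted p was under 0.05. HES1 has 3 filled symbols below 0 in each line (1 triangle in ZR-75-1 lies behind the circle), while NOTCH1 has 1 near -1 and 1 open symbol above 0.

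In BT-549 each dose is 1 array and nothing can be tested. NOTCH1 read 115 under DMSO, 73.2 at 50 nM and 82.7 at 250 nM, so both treated arrays were lower (-0.65 and -0.47). The other NOTCH1 probe sets, both dimmer, were higher on the treated arrays (0.27 and 0.39 on one, 0.07 and 0.79 on the other). The fall is therefore seen on 1 of 3 probe sets. HES1 read 72.8, 51.2 and 125, which put the 250 nM array above DMSO (0.78, 1.72-fold), opposite to the replicated lines. Its other probe sets there differed by -0.25, 0.02, -0.03 and -0.39, so the rise is seen on 1 of 5 probe sets. That probe set is the brightest over all arrays but not in BT-549, where 2 that were lower are brighter. JAG1 read 231, 301 and 166, the order seen in MDA-MB-468 and ZR-75-1. NOTCH2 read 359, 375 and 343, and HES4 read 267, 205 and 186. NOTCH3 read 41.5, 55.8 and 57.6, with both treated arrays above DMSO (0.43 and 0.47). Its other probe set, brighter in BT-549, differed by -0.13 at 50 nM and 0.35 at 250 nM, so the rise at 50 nM was not shared. Past 1.5-fold, NOTCH1 was lower at 50 nM, as were 10.1% of all genes, and HES1 was higher at 250 nM, as were 1.88%. No member was past it in the other directions (1.23% of all genes higher at 50 nM and 16.5% lower at 250 nM).

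Changes shared by the 4 lines were fitted on 12 means, 1 per line and dose, with a term for the line. At 250 nM 3 members were lower, where 29.9% of all genes were lower. They were NOTCH1 (-0.93 ± 0.17, adjusted p = 0.00259), NOTCH2 (-0.41 ± 0.14, adjusted p = 0.0437) and HEY1 (-0.53 ± 0.17, adjusted p = 0.0352), each lower in 4 of 4 lines on the probe set used for the gene. HEY1 was below background in T47D and passed the filter on low values only through MDA-MB-468. The NOTCH2 call ended without MDA-MB-468 (-0.38, adjusted p = 0.167), ZR-75-1 (-0.25, 0.124) or T47D (-0.48, 0.0663), and the HEY1 call without MDA-MB-468 (-0.37, 0.180), BT-549 (-0.57, 0.0742) or ZR-75-1 (-0.53, 0.0961). HES1 was not called with BT-549 in the fit (-0.53 ± 0.33, adjusted p = 0.239) and was without it (-0.97, adjusted p = 0.000768). The BT-549 rise of HES1 was 1 array on the probe set used, the other HES1 probe sets differing by -0.25, 0.02, -0.03 and -0.39. JAG1 was not called (-0.32, adjusted p = 0.209), and was without T47D (-0.56, adjusted p = 0.0128). With centred arrays only the NOTCH1 call held, NOTCH2 being at -0.25 and HEY1 at -0.37. No member was higher at 250 nM (9.48% of all genes), also at an unadjusted limma p under 0.05. NOTCH3 gave 0.17, higher in 4 of 4 lines (adjusted p = 0.221). At 50 nM no member was called (0.316% of all genes lower and 0.182% higher) or had an unadjusted limma p under 0.05. JAG1 was higher there in 4 of 4 lines (0.39 ± 0.19, limma adjusted p = 0.326).

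The response itself was then compared between lines with interaction terms. At 250 nM 2 members differed between MDA-MB-468 and ZR-75-1 (22.9% of all genes), 2 between MDA-MB-468 and T47D (14.5%) and 2 between ZR-75-1 and T47D (22.2%). The JAG1 response differed between MDA-MB-468, where JAG1 fell, and T47D, where its brightest probe set rose (-1.23 ± 0.19, limma adjusted p = 0.000452). ZR-75-1 differed from T47D in the same way (-0.76, adjusted p = 0.00940). In T47D JAG1 lay close to background, with 1 of 2 DMSO arrays above it, which left little room for a fall. The T47D rise was called on 1 of 3 tested JAG1 probe sets. The JAG1 responses of MDA-MB-468 and ZR-75-1 differed by -0.47, which missed the threshold (adjusted p = 0.102). NOTCH2 fell by more in ZR-75-1 than in T47D (-0.70 ± 0.12, adjusted p = 0.000587) or MDA-MB-468 (0.39, adjusted p = 0.0310). RBPJ differed between MDA-MB-468 and ZR-75-1 (0.35, adjusted p = 0.0229) and JAG2 between MDA-MB-468 and T47D (-0.43, adjusted p = 0.0446). With centred arrays the calls ended for NOTCH2 (0.34) and RBPJ (0.30) between MDA-MB-468 and ZR-75-1 and for JAG2 (-0.35). The first of these also ended without MDA-MB-468 DMSO array 1 (0.34) or 250 nM array 1 (0.27), or ZR-75-1 DMSO array 1 (0.38), DMSO array 2 (0.39) or 250 nM array 2 (0.31). The RBPJ call ended without array 1 of either group in either line (0.27 to 0.33). The JAG2 call ended without any array of T47D or ZR-75-1, both MDA-MB-468 DMSO arrays in turn or 250 nM array 1 (-0.49 to -0.29).

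The NOTCH1 and HES1 responses at 250 nM did not pass a test of difference between any of the 3 line pairs. For NOTCH1 the differences were 0.06 between MDA-MB-468 and ZR-75-1 (95% interval -0.28 to 0.40), -0.17 between MDA-MB-468 and T47D (-0.51 to 0.17) and -0.24 between ZR-75-1 and T47D (-0.58 to 0.10). For HES1 they were -0.10 (-0.41 to 0.20), -0.12 (-0.43 to 0.18) and -0.02 (-0.32 to 0.29). At 50 nM no member response differed between lines, where 1.84%, 2.14% and 0.214% of all genes did. By limma at an unadjusted p under 0.05, NOTCH1 and HES1 both differed at 50 nM between MDA-MB-468 and T47D (-0.44 and 0.33; adjusted p = 0.193 and 0.277), and NOTCH1 also between ZR-75-1 and T47D (-0.34, adjusted p = 0.559).

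The wider NOTCH pathway list has 82 genes, of which 71 were tested, the 9 members among them. At 250 nM 34 were lower and 3 higher in MDA-MB-468, where 30.3% of all genes were lower and 9.54% higher. In ZR-75-1 36 were lower and 6 higher, beside 42.8% and 9.93%. In T47D 24 were lower and 8 higher, beside 33.7% and 9.61%, so the T47D count is close to the share of all genes. The list medians were -0.22, -0.24 and -0.11, beside -0.07, -0.18 and -0.08 over all genes. Without the members, 62 tested genes gave 28 lower and 3 higher, 29 and 6, and 22 and 7. With centred arrays the lower counts of the 71 became 25, 27 and 19 and the higher counts 13, 17 and 13, and with quantile normalization 24, 24 and 19 lower and 10, 25 and 20 higher.

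The counts by role are small and are to be read against the same shares of all genes, 30.3%, 42.8% and 33.7% lower. Of 8 nuclear complex genes, 5 were lower in each line at 250 nM, and MAML2 was called higher in ZR-75-1, where both groups were below background. MAML1, a coactivator that binds the NOTCH and RBPJ complex, was lower by 0.99 in MDA-MB-468 (adjusted p = 1.65e-05), 1.75 in ZR-75-1 (adjusted p = 1.18e-08) and 1.43 in T47D (adjusted p = 3.14e-07). CREBBP, a histone acetyltransferase recruited to that complex, differed by -1.19, -1.27 and -0.66, all called. MAML2, a relative of MAML1, was lower in MDA-MB-468 (-2.04, adjusted p = 4.00e-09) and at least 1.98-fold lower in T47D. Of 12 genes for endocytosis and turnover, 6, 7 and 6 were lower. Among them were FBXW7, the ubiquitin ligase subunit that marks the NOTCH intracellular part for degradation (-1.46, -1.74 and -1.04), NUMBL, a relative of the NOTCH inhibitor NUMB (-1.28, -1.64 and -0.56), and NEURL1B, a ubiquitin ligase for NOTCH ligands (-0.87, -1.25 and -0.46), all called. Of 11 corepressor genes, 4, 5 and 5 were lower, among them TLE1 (-1.22, -0.98 and -0.56) and CTBP2 (-0.64, -1.12 and -0.93), again all called. TLE3 was lower in ZR-75-1 (-1.42) and T47D (-0.74) and not called in MDA-MB-468 (-0.17, adjusted p = 0.165).

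With centred or quantile-normalized arrays these 250 nM calls held, except TLE1 in T47D with quantile normalization (-0.26).

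The genes that modify and cut the receptor moved less and in both directions. Of 7 cleavage genes, 2, 2 and 0 were lower and 1, 2 and 3 higher. PSENEN, a gamma-secretase subunit, was higher in every replicated line (0.39, 0.20 and 0.23; adjusted p = 2.60e-05, 0.00690 and 0.00371), and PSEN2, a catalytic subunit, was lower in MDA-MB-468 (-0.32) and ZR-75-1 (-0.37). Of 5 glycosylation genes, 2, 2 and 1 were lower. POFUT1, which adds the fucose that NOTCH needs for ligand binding, was lower at 250 nM (-0.28, -0.63 and -0.34) and also at 50 nM (-0.38, -0.41 and -0.33; adjusted p = 0.0115, 0.0155 and 0.0437). With centred arrays the POFUT1 calls ended at both doses in MDA-MB-468 (-0.24 and -0.07) and T47D (-0.29 and -0.22), and those of PSEN2 ended in both lines (-0.12 each). With quantile normalization PSEN2 (0.01 and 0.03) and, in MDA-MB-468 at 250 nM, POFUT1 (0.03) turned to the other sign, the POFUT1 calls ended in ZR-75-1 at 250 nM (-0.15) and in T47D at both doses (-0.27 and -0.05), and the LFNG call in ZR-75-1 ended (-0.13). LFNG, a Fringe enzyme that extends that fucose and shifts receptors between ligands, was lower in MDA-MB-468 (-0.64) and ZR-75-1 (-0.54) and higher in T47D at 250 nM (0.52, adjusted p = 0.00215) and 50 nM (0.81, adjusted p = 0.000404). The 3 genes called higher in MDA-MB-468 at 250 nM were PSENEN and, chosen after their values were seen, the corepressor genes HDAC1 (0.29) and TLE2 (0.36).

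In the HES and HEY family 4, 4 and 2 of 8 tested genes were lower at 250 nM, beside 30.3%, 42.8% and 33.7% of all genes. The MDA-MB-468 count holds HEY1, which passed the filter on low values only through that line. HEY2, a relative of HEY1, was lower in ZR-75-1 (-1.83, adjusted p = 8.01e-09) and T47D (-1.92, adjusted p = 1.28e-08) and by -0.38 in MDA-MB-468 (adjusted p = 0.0344), a call that ended with centred arrays (-0.18). HES2 was lower in MDA-MB-468 (-0.58) and ZR-75-1 (-0.67) and differed by 0.02 in T47D, the MDA-MB-468 call ending with quantile normalization (-0.26). HES6, named after its values were seen, is a family member known to oppose HES1, and it was higher at 50 nM in each replicated line (0.34, 0.59 and 0.53; adjusted p = 0.00753, 0.000348 and 0.000542). At 250 nM no gene of the family, HES6 included, was called higher in MDA-MB-468 or ZR-75-1. In T47D 1 of the 8 was called higher, where 9.61% of all genes were. Of 11 other genes described as NOTCH targets, 7, 6 and 4 were lower and none higher at 250 nM. MYC, a regulator of cell growth, differed by -4.23, -2.29 and -2.18. SOX9 and GATA3 were each called in 3 lines, with mean changes over the lines of -1.66 and -1.12. At 50 nM 9, 2 and 4 of the 71 genes of the wider list were lower, where 14.6%, 5.68% and 7.56% of all genes were, and 4, 2 and 4 were higher, where 4.42%, 2.79% and 1.99% were.

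**Figure D4:**
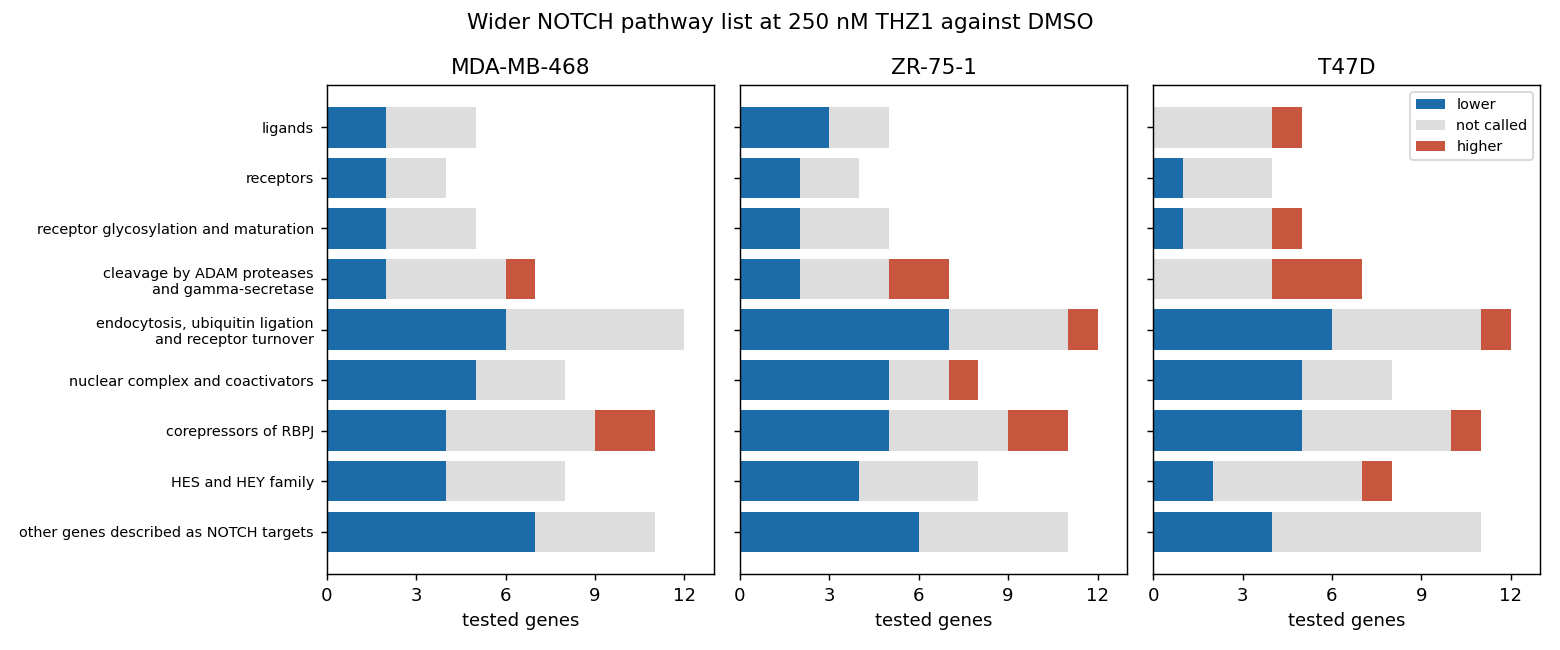
Number of tested genes of the wider NOTCH list (horizontal axis) called lower, not called or called higher at 250 nM, stacked by role for MDA-MB-468, ZR-75-1 and T47D. The nuclear complex has 5 of 8 genes lower in each line, and cleavage genes are the role with the most genes higher in T47D (3 of 7).

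Across the 12 line-by-dose means, which share lines, JAG1 ran with RBPJ (Pearson r = 0.95) and HEY1 (0.90) and against JAG2 (-0.82). In T47D HEY1 was below background and JAG1 close to it. NOTCH3 ran with HES4 (0.93), both being highest in MDA-MB-468. NOTCH1 ran with NOTCH2 (0.76), HES1 (0.72) and HES4 (0.72). Over all tested genes the closest were PPAT (0.981), AGFG1 (0.978) and TGFBR2 (0.977) for JAG1, and LIG3 (0.983), OGFOD2 (0.974) and CACFD1 (0.968) for JAG2. For NOTCH1 they were RAPGEF5 (0.970), RAB20 (0.966) and TMCC1 (0.962), for NOTCH2 CDCA5 (0.945), REV1 (0.945) and SAC3D1 (0.924), and for NOTCH3 LGALS3BP (0.993), DSC2 (0.992) and SLC44A2 (0.991). RBPJ was closest to SH3GLB1 (0.982), RPF1 (0.979) and GATAD2A (0.973). Among the targets, HES1 was closest to SUPT7L (0.943), MXD1 (0.943) and INSIG2 (0.938), HES4 to SLC35F2 (0.990), DOK4 (0.986) and ZNF76 (0.982), and HEY1 to DNAJC9 (0.951), MED23 (0.947) and ZFP69 (0.947). With 12 points and 12644 genes, high values of r are to be found for any gene, and these are given as descriptions with no test.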

How the data were processed

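Total RNA of 21 samples was measured on 3' expression arrays. Per the labels' protocols, ERCC spike-in RNA was given according to the number of cells, and the same mass of total RNA was labelled from every sample. The deposited values are linear intensity per probe set, made with MAS5 per the submitters' processing notes, and their scaling between arrays is not stated in those notes or the labels. The platform annotation names 44994 of 49395 probe sets by 1 gene symbol, 1832 by several (not used) and has no entry for 2569.

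Values under 1 were set to 1, and log2 was taken with no further scaling. A gene was represented by its brightest probe set and kept where its highest group mean reached log2 5.84 (intensity 57.4). The 18 arrays of MDA-MB-468, T47D and ZR-75-1 were fitted as 9 groups with limma 3.58.1 (R 4.3.3, moderated with an intensity trend, 9 residual plus 6.18 prior degrees of freedom), a step tested on simulated data. A fold is "at least" where every array of the lower group was at or under the mean of that array's 23 background probe sets, a rule added after the data were seen. The 4-line fit used 12 line-by-dose means (6 residual degrees of freedom).

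The members and gene lists were chosen with earlier results of these data known. The members are named throughout. From each role of the wider list up to 3 more genes are named, those with the largest mean change at 250 nM among genes called in at least 2 of 3 lines. Per member the 3 genes with the highest Pearson r over the 12 means are named. Replicate numbers were checked for pairing: deviations of same-numbered arrays correlated at 0.01 to 0.29 in MDA-MB-468, -0.22 to 0.17 in ZR-75-1 and 0.02 to 0.14 in T47D, so the numbers were not taken to pair the arrays. Scaling to the ERCC mix was planned and not run, since the annotation names 0 probe sets for ERCC spike-ins.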

Additional observations from a re-analysis of the deposited data

Results flagged for a closer look

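Responses at 250 nM that differed between lines by the test of the difference itself (limma interaction terms, adjusted over all genes) are listed here as log2 differences with their standard errors. JAG1 differed between MDA-MB-468 and T47D by -1.23 (SE 0.19, adjusted p = 0.000452) and between ZR-75-1 and T47D by -0.76 (SE 0.19, adjusted p = 0.00940), with lower levels in the first line of each pair and a higher level, close to background, in T47D. NOTCH2 differed between ZR-75-1 and T47D by -0.70 (SE 0.12, adjusted p = 0.000587) and between MDA-MB-468 and ZR-75-1 by 0.39 (SE 0.12, adjusted p = 0.0310), the fall being the larger in ZR-75-1 both times. RBPJ differed between MDA-MB-468 and ZR-75-1 by 0.35 (SE 0.10, adjusted p = 0.0229). JAG2 differed between MDA-MB-468 and T47D by -0.43 (SE 0.14, adjusted p = 0.0446).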

How the results depend on the processing

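Of 1554 recomputed member changes against DMSO, 1474 kept their side of the threshold, 47 were weaker, 27 stronger and 6 reversed. A change of sign with neither value called counts among the 1474. Leaving out 1 array gave 972 of the 1554, and many of those arrays were outside the comparison, which leaves the difference as it was. For NOTCH1 and HES1 at 250 nM 173 of 174 kept their side, a share that such runs could hardly lower. The exception was NOTCH1 in T47D with the mean of all probe sets. With quantile normalization JAG2 turned to 0.04 in MDA-MB-468 and 0.27 in ZR-75-1 at 250 nM, 0.37 in ZR-75-1 from 50 to 250 nM and 0.29 over 4 lines, and HES4 to 0.16 in ZR-75-1, 0.25 in T47D and, from 50 to 250 nM in ZR-75-1, 0.24. With centred arrays JAG2 turned to 0.01 in ZR-75-1 at 250 nM and HES4 to 0.03 from 50 to 250 nM. With the mean of all probe sets RBPJ in MDA-MB-468 turned to -0.20 at 250 nM (adjusted p = 0.0492). The cause was not tested.

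Counts of members called that moved by over 1.5 times are given here; smaller moves include 250 nM lower counts of 5 in MDA-MB-468 (centred, quantile, 75th percentile filter, only that line) and of 5 (only that line), 6 (no filter, mean of probe sets) and 8 (floor of 16) in ZR-75-1. At 50 nM in MDA-MB-468 lower went from 1 to 0 (centred, quantile, mean of probe sets) and higher from 0 to 1 (centred, quantile, 75th percentile filter, replicate block, only that line). At 50 nM in ZR-75-1 higher went from 0 to 1 (centred, quantile, 75th percentile filter, mean of probe sets, all 21 arrays, replicate block). At 50 nM in T47D lower went from 1 to 0 (centred, quantile, no filter, mean of probe sets, only that line). At 250 nM in MDA-MB-468 higher went from 0 to 1 (centred). At 250 nM in ZR-75-1 lower went from 7 to 3 (centred, quantile) and higher from 0 to 2 (quantile). At 250 nM in T47D lower went from 2 to 1 (mean of probe sets) and higher from 1 to 2 (centred), 3 (quantile) or 0 (mean of probe sets, only that line). Response differences went from 2 to 0 (centred, mean of probe sets) or 1 (quantile) for MDA-MB-468 against ZR-75-1, to 1 for MDA-MB-468 against T47D (centred, no filter, every probe set, replicate block) and to 1 for ZR-75-1 against T47D (quantile). Over 4 lines at 250 nM lower went from 3 to 1 (centred, without MDA-MB-468, without ZR-75-1) and higher from 0 to 1 (centred) or 2 (quantile).

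Leaving out 1 array at a time gave, at 50 nM, 0 to 1 lower and 0 to 1 higher in MDA-MB-468 and in ZR-75-1 and 0 to 1 lower in T47D. At 250 nM it gave 5 to 6 lower in MDA-MB-468, 4 to 7 in ZR-75-1, and 2 lower and 0 to 1 higher in T47D. Untreated differences ranged over 6 to 7 (MDA-MB-468 against ZR-75-1), 7 to 9 (MDA-MB-468 against T47D) and 3 to 7 (ZR-75-1 against T47D), and response differences over 0 to 2, 1 to 2 and 2 to 3 in the same order. The lone array of such a group is assumed to vary like the other groups. With the replicate number as a block, JAG1 at 50 nM passed in MDA-MB-468 (adjusted p = 0.0449) and ZR-75-1 (adjusted p = 0.0442), HEY1 in ZR-75-1 at 250 nM passed (-0.54, adjusted p = 0.0329), and JAG2 in ZR-75-1 at 250 nM did not (-0.24, adjusted p = 0.0527). Under the block the HES4 difference between untreated ZR-75-1 and T47D passed (-0.19, adjusted p = 0.0482) and the JAG2 response difference between MDA-MB-468 and T47D did not (-0.43, adjusted p = 0.0554). Signals near background (HEY1, JAG1 in T47D) and 2 arrays per group limit the precision.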
